A study of Mus musculus with 15 samples.

Results

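The genes described here are Trp53, which encodes the transcription factor p53, and 9 genes that p53 is known to induce: Mdm2, Plk2, Psrc1, Ccng1, Bbc3, Bax, Trp53inp1, Zmat3 and Phlda3. They were picked by symbol and make up 10 of the 31298 gene symbols measured. All 10 passed the filter on low values, which left 27994 genes for testing. RNA sequencing was done on hematopoietic stem cells (HSCs) that had been sorted from mouse bone marrow and divided by retention of a histone label.

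All mice were of 1 kind, hCD34-tTA x TetO-H2BGFP. A transactivator under human CD34 regulatory sequence drove histone H2B fused to green fluorescent protein. The design was meant to label cells with activity of that sequence. All mice had been given doxycycline in the drinking water, which shuts the label off and lets cell division dilute it. The sort gate was lineage-negative, Sca1+, c-Kit+, CD48-, Flk2- and CD150+, and the gated cells were divided into the groups GFP4, GFP3, GFP2 and GFP1, or kept undivided as Total. Each group had 3 libraries, I, II and III, from mice of 5 months (12 weeks of doxycycline), 5.5 months (14 weeks) and 6.5 months (16 weeks). The labels do not say which group kept the most label, and the group number is taken here to rise with it. They also do not say whether a library came from 1 mouse or from a pool, or whether groups share mice. All p-values therefore reflect only how much these libraries varied. In bulk RNA from sorted cells, fewer cells of a type and less RNA per cell cannot be told apart.

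p53 is a transcription factor that is held at a low protein level by the ubiquitin ligase Mdm2, itself a p53 target, and is stabilised after DNA damage and other stress. Its targets include genes that halt the cell cycle, genes of the mitochondrial route to apoptosis and genes that feed back on p53. In HSCs, p53 is known for limiting entry into the cell cycle and for clearing damaged cells. Because p53 is controlled largely as a protein, the level of its mRNA is not a measure of its activity.

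Promoter windows from RefSeq (build GRCm38.p6, 250 bases before to 50 after an annotated start) were at hand for 8 of the 10 genes, 11 windows in all. Trp53inp1 and Zmat3 had no entry. Each window was searched on both strands for the p53 half-site consensus, for CCAAT, and for TTTGAA and TTCGAA, letters found in promoters of many genes of mitosis. The stretches from 250 bases before to 20 after the start are shown for the 3 genes that differed between GFP1 and GFP4, on the strand of the gene, with every match to these motifs in capitals. Plk2 is read from chr13:110394794-110395063 (plus strand), Psrc1 from chr3:108383554-108383823 (plus strand, the first of its 2 starts) and Ccng1 from chr11:40755267-40755536 (minus strand).
Plk2: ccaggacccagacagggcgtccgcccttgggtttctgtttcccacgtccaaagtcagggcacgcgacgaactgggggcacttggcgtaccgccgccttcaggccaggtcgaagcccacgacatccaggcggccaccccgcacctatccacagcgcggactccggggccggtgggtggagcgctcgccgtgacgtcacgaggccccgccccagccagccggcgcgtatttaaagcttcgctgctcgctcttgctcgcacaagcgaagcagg
Psrc1: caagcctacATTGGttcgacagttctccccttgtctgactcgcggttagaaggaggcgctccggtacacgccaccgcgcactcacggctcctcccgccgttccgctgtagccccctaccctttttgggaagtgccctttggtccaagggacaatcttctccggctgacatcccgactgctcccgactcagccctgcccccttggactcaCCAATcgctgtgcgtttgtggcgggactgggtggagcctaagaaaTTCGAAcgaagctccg
Ccng1: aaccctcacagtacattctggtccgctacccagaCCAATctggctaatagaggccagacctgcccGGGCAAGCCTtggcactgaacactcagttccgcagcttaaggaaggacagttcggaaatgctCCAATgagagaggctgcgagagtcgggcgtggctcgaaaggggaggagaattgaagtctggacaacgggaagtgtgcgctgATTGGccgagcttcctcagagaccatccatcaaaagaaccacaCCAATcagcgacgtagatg

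The Plk2 window held none of these letters, and the Psrc1 window shown held CCAAT or its reverse complement ATTGG at 2 places, 241 and 41 bases before the start, and TTCGAA from base 5 after it. Counted from the second Psrc1 start, the nearer CCAAT began 75 bases and the TTCGAA 30 bases before that start. The Ccng1 window held CCAAT or ATTGG at 4 places and 1 p53 half-site match, GGGCAAGCCT, that began 185 bases before the start. Half-site matches also stood in the windows of Trp53 (GGACTTGCCC), Mdm2 (GAACTTGCCT) and Bax (AGGCAAGCTT), where the last shares 2 bases with a TTTGAA. That makes 4 of the 8 genes (4 of the 11 windows), and a match was found in 8.36% of all 32851 windows. CCAAT was in 37.4% of all windows, TTTGAA in 17.9% and TTCGAA in 1.56%. A pair of half-sites 0 to 13 bases apart, as in a complete p53 site, was in 0.0731% of all windows and in none of these 8 genes. A match describes the letters only, and p53 sites are often in introns or further upstream, outside these windows.

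Values are the authors' log2 expression per gene, which share one distribution in all libraries apart from ties at the lowest values, as quantile normalization gives. A value of 12.05 against 8.47 is 12.0-fold on the linear scale. Read depth is unknown, and a log2 level of one gene is not compared with that of another because the scale per length is not known. Differences were tested with limma over all 27994 genes and called at an adjusted p (Benjamini-Hochberg) under 0.05. Groups whose libraries do not overlap are named as a description only. The share of all genes with such a gap was not counted. All 10 HSC markers listed, among them Procr, Hlf and Mecom, were detected in all 15 libraries, with a summed level from 2440 to 2530 ppm of a library's summed linear values in GFP1, from 3650 to 3840 ppm in GFP2 and from 4610 to 5450 ppm in GFP4. Against GFP4, 7 of these 10 markers were lower in GFP1 and 4 in GFP2, with medians of -1.15 and -0.42. The immunoglobulin share of that sum was 4.92% to 5.28% in GFP1, 4.34% to 5.49% in Total, and 0.00726% to 0.0737% in GFP2, GFP3 and GFP4. The summed level of 12 plasma cell markers was 4320 to 5440 ppm in GFP1, 2680 to 6170 ppm in Total and 355 to 533 ppm in the other groups, and all 12 were higher in GFP1 than in GFP4. Of 28 markers of other blood cells, endothelial cells and stromal cells, 7 were higher in GFP1 than in GFP4 and none was lower. Of all genes tested, 19.5% were called in GFP1 against GFP4 and 4.35% in GFP2 against GFP4. The part of all these markers in the members' differences was not tested. GFP2 against GFP4 compares groups in which the immunoglobulin share is low and 1 of the 12 plasma cell markers differed.

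Across the label range, the members of the p53 network did not move together. Plk2 was 12.0-fold lower in GFP1 than in GFP4, Psrc1 was 3.95-fold higher and Ccng1 was 1.32-fold lower. The other 7 genes, Trp53 and Mdm2 included, did not pass the test between these groups. Thus 3 of 10 genes were called (1 higher, 2 lower), where 19.5% of all genes tested were called (9.27% higher, 10.3% lower), and the median log2 difference was -0.12 against -0.069 over all genes. The plot of all 10 genes by library shows the levels behind these differences, with wider axes for Plk2 and Psrc1.

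**Figure D1:**
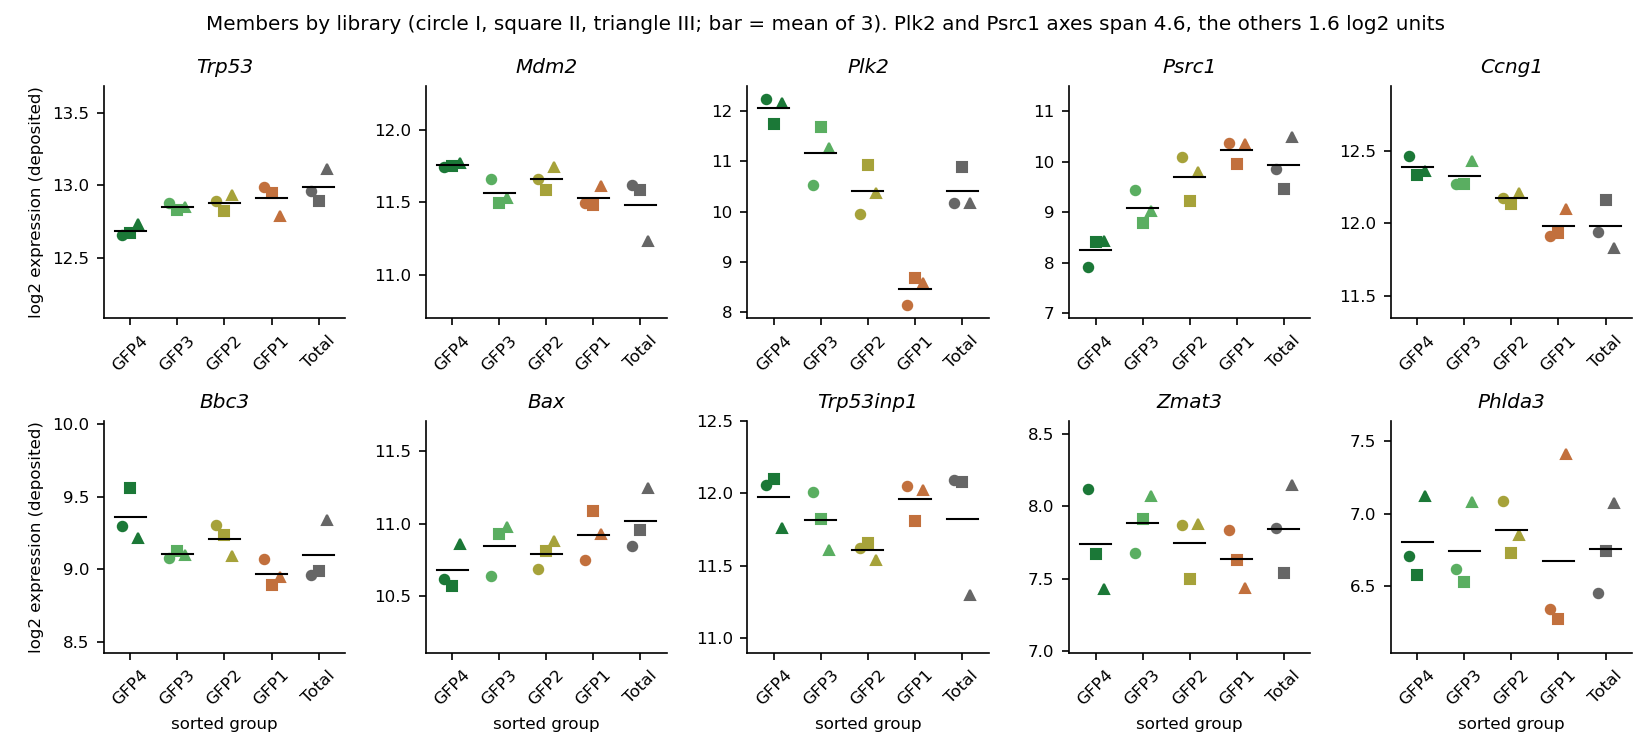
Deposited log2 expression (vertical axis) of Trp53 and 9 p53 target genes in the 3 libraries of GFP4, GFP3, GFP2, GFP1 and Total (horizontal axis); points are libraries, bars are means of 3, and the axes of Plk2 and Psrc1 span a wider log2 range than those of the other 8 genes. Plk2 falls from a mean of 12.05 in GFP4 to 8.47 in GFP1 and Psrc1 rises from 8.25 to 10.23, while Trp53 stays between 12.66 and 13.11 in all 15 libraries.

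Trp53 itself (chromosome 11, 69580359 to 69591873, GRCm38) varied little. Its log2 level was 12.66, 12.67 and 12.73 in GFP4 libraries I, II and III, and 12.88, 12.83 and 12.85 in GFP3. It was 12.89, 12.82 and 12.93 in GFP2, 12.99, 12.95 and 12.79 in GFP1, and 12.96, 12.89 and 13.11 in Total. All 3 GFP4 libraries lay below each of the other 12, and the neighbours in the order Total, GFP1, GFP2 and GFP3 overlapped. The difference of GFP1 from GFP4 was 0.23 (SE 0.0807, 95% confidence interval 0.06 to 0.40) and missed the threshold (limma adjusted p = 0.0555). It passed in 8 of 24 alternative settings, with adjusted p from 0.0148 to 0.198 over the 24. Both rescalings passed, median-of-ratios (adjusted p = 0.0148) and quantile normalization without immunoglobulin genes (adjusted p = 0.0329). So did the 1 ppm filter (adjusted p = 0.0257), array weights (adjusted p = 0.0319) and no filter (adjusted p = 0.0487). The rest were those without GFP1 library III, Total library II or Total library III. The trend of Trp53 (0.07 per step, adjusted p = 0.0602) passed in 7 of 24, both rescalings included. Against Total, Trp53 fell by 0.30 in GFP4 (SE 0.0807, adjusted p = 0.0194, 3 libraries a group), a call that was lost without GFP4 library I (adjusted p = 0.075), GFP4 library II (adjusted p = 0.063) or Total library III (adjusted p = 0.0597). A processed pseudogene, Trp53-ps, has a row of its own with log2 values between 0.14 and 1.66, and how reads were split between the copies is not known.

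Mdm2 (chromosome 10, 117688875 to 117710758), the ligase that marks p53 for degradation, was 11.74, 11.75 and 11.77 in GFP4 and 11.49, 11.48 and 11.61 in GFP1. GFP1 was thus below GFP4 in every library, but GFP2 (11.66, 11.58 and 11.74) and Total (11.62, 11.58 and 11.23) overlapped with GFP1. The difference of GFP1 from GFP4 was -0.22 (SE 0.103, 95% confidence interval -0.44 to -0.01) and did not pass (adjusted p = 0.16). It passed in 1 of 24 settings, without Total library III (adjusted p = 0.0495). Mdm4, the related protein that binds p53 and represses its activity, differed by -0.27 (SE 0.127, adjusted p = 0.165) and passed in 2 of 24 settings, without that library (adjusted p = 0.031) and in a fit of only the 2 groups compared (adjusted p = 0.0436).

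Plk2 (chromosome 13, 110395046 to 110400844), a polo-like kinase with roles in centriole duplication and the stress response, showed the largest difference of the 10 genes. Its log2 level was 12.24, 11.74 and 12.16 in GFP4, 10.52, 11.68 and 11.27 in GFP3 and 9.96, 10.92 and 10.36 in GFP2. It was 8.14, 8.68 and 8.58 in GFP1 and 10.17, 10.88 and 10.18 in Total. The GFP4 libraries were above all others and the GFP1 libraries below all others, whereas GFP3 overlapped with GFP2 and with Total. Plk2 fell by 3.58 from GFP4 to GFP1 (SE 0.324, 95% confidence interval -4.29 to -2.87, adjusted p = 6.62e-06), and the call held in all 24 alternatives run for it, with differences from -3.73 to -3.42. Along the 4 groups it fell by 1.15 per step (SE 0.103, adjusted p = 5.55e-06).

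Psrc1 (chromosome 3, 108383839 to 108388231), a microtubule-binding protein of the mitotic spindle, went the other way. Its level was 7.91, 8.42 and 8.43 in GFP4, 9.44, 8.78 and 9.03 in GFP3 and 10.10, 9.22 and 9.80 in GFP2. It was 10.38, 9.96 and 10.36 in GFP1 and 9.86, 9.47 and 10.50 in Total. GFP4 was below every other library, and the neighbours in the order GFP1, Total, GFP2 and GFP3 overlapped. Psrc1 was 1.98 higher in GFP1 than in GFP4 (SE 0.269, 95% confidence interval 1.41 to 2.55, adjusted p = 4.55e-05), and the call held in all 24 alternatives run for it, with differences from 1.81 to 2.12. The trend was 0.66 per step (SE 0.0852, adjusted p = 2.75e-05).

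Ccng1 (chromosome 11, 40748552 to 40755311), the cyclin G1 that recruits a phosphatase to Mdm2, moved little. It was 12.46, 12.33 and 12.36 in GFP4, 12.27, 12.27 and 12.43 in GFP3, 12.17, 12.13 and 12.21 in GFP2, and 11.91, 11.93 and 12.10 in GFP1. GFP4 and GFP3 overlapped, GFP2 lay below both, and GFP1 lay below GFP2, while Total (11.94, 12.16 and 11.83) overlapped with GFP1 and GFP2. From GFP4 to GFP1 it fell by 0.41 (SE 0.0956, 95% confidence interval -0.61 to -0.20, adjusted p = 0.00409), and the trend was -0.14 per step (SE 0.0302, adjusted p = 0.0023). Both calls held in the 24 alternatives run for each. The trend called these same 3 genes of 10 (Plk2, Psrc1 and Ccng1), where 20.1% of all genes were called.

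Of the genes that act in apoptosis, Bbc3 and Bax did not pass. Bbc3 (chromosome 7, 16308393 to 16318205), the BH3-only protein PUMA that inhibits the protective BCL2 proteins, was 9.30, 9.56 and 9.22 in GFP4 and 9.07, 8.89 and 8.95 in GFP1. The groups did not overlap, and the difference was -0.39 (SE 0.149, 95% confidence interval -0.70 to -0.08, adjusted p = 0.0778). It passed in 3 of 24 settings, with the filter at a mean of 1 ppm (adjusted p = 0.0308), with array weights (adjusted p = 0.028) and without Total library III (adjusted p = 0.0452). Bax (chromosome 7, 45461697 to 45466898), which permeabilises the outer mitochondrial membrane, was 10.62, 10.57 and 10.86 in GFP4 and 10.75, 11.09 and 10.93 in GFP1. These overlapped, and the difference was 0.24 (SE 0.132, 95% confidence interval -0.04 to 0.51, adjusted p = 0.266). Exons of Bax overlap those of the gene model Gm45808 on the same strand, so its reads may include some from there.

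The other 3 targets overlapped between the ends of the label range. Trp53inp1 (chromosome 4, 11156431 to 11174379), a stress protein that promotes p53 activity and autophagy, was 12.06, 12.10 and 11.76 in GFP4 and 12.05, 11.81 and 12.02 in GFP1 (difference -0.01, 95% confidence interval -0.38 to 0.35). It was lowest in GFP2, at 11.62, 11.66 and 11.54, below every library of GFP4 and GFP1. Neither difference passed: GFP2 minus GFP4 was -0.37 (SE 0.172, adjusted p = 0.354) and GFP1 minus GFP2 was 0.35 (SE 0.172, adjusted p = 0.304), and the latter passed with the compared groups fitted alone (adjusted p = 0.0329) and without Total library III (adjusted p = 0.0492). Zmat3 (chromosome 3, 32334792 to 32366014), an RNA-binding zinc finger protein, ranged from 7.43 to 8.15 over the 15 libraries, and every pair of neighbouring groups overlapped. Phlda3 (chromosome 1, 135766119 to 135769136), an inhibitor of the kinase Akt, ranged from 6.27 to 7.41, and its 3 GFP1 libraries (6.34, 6.27 and 7.41) spanned that whole range. Their 95% confidence intervals for GFP1 minus GFP4, -0.60 to 0.38 for Zmat3 and -0.79 to 0.53 for Phlda3, leave room for changes as large as that of Ccng1. The sign of the difference between GFP1 and GFP4 flipped for these 3 genes when quantile normalization was repeated without immunoglobulin genes.

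**Figure D2:**
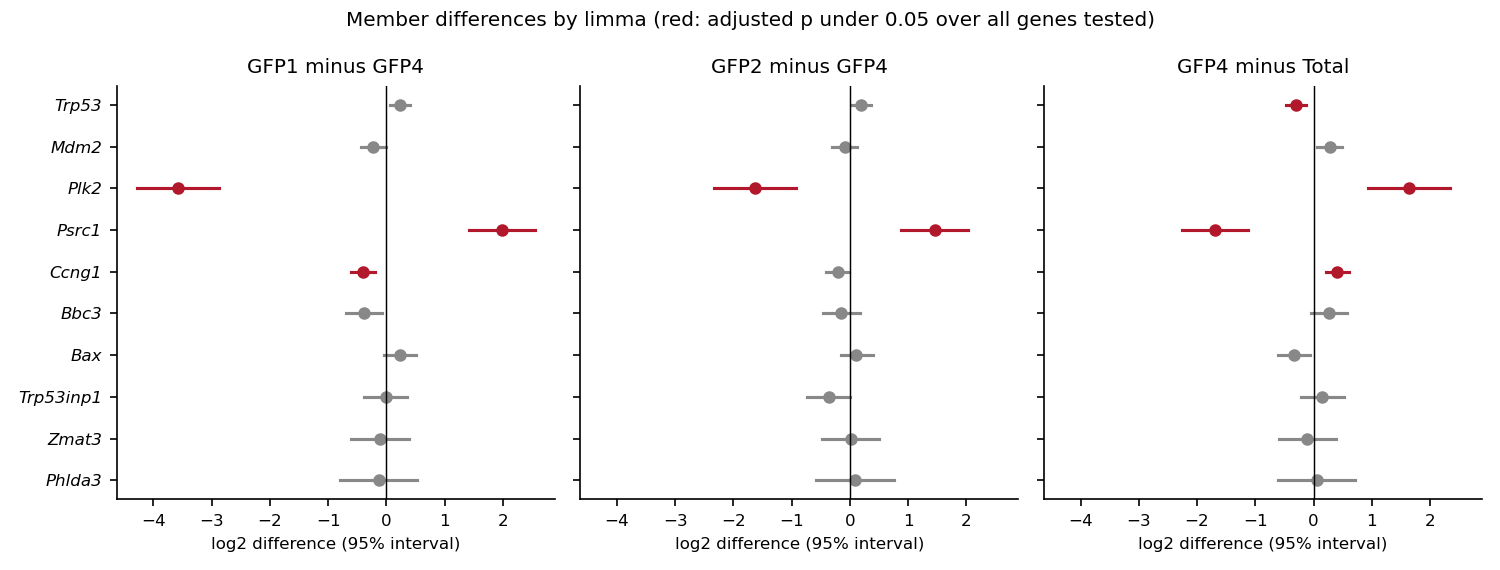
Log2 differences with 95% confidence intervals (horizontal axis) of the 10 genes (rows) for GFP1 minus GFP4, GFP2 minus GFP4 and GFP4 minus Total, 3 libraries a group, with calls at an adjusted p under 0.05 in red. Plk2 and Psrc1 are called in all 3 panels and in opposite directions, at -3.58 and 1.98, -1.63 and 1.45, and 1.64 and -1.69.

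The steps between neighbouring groups were examined to see where along the label the genes changed. Between GFP4 and GFP3, 0 of 10 genes were called by limma, where 0.0572% of all genes were; 3 genes (Trp53, Plk2 and Psrc1) had an unadjusted p under 0.05, as did 5.86% of all genes. Plk2 differed by -0.89 (SE 0.324, adjusted p = 0.647) and Psrc1 by 0.83 (SE 0.269, adjusted p = 0.445), and in both genes the 2 groups did not overlap. The 2 groups did not overlap in Trp53, Mdm2 and Bbc3 either. These gaps are a description only, because the share of all genes with such a gap was not counted. Between GFP3 and GFP2, 0 of 10 genes and 0.0% of all genes were called; 2 genes (Plk2 at -0.75 and Psrc1 at 0.62) and 5.6% of all genes had an unadjusted p under 0.05. From GFP2 to GFP1, 1 of 10 genes was called, where 7.17% of all genes were. That gene was Plk2, which fell by 1.94 (SE 0.324, adjusted p = 0.00332), and Psrc1 differed by 0.53 (SE 0.269, 95% confidence interval -0.04 to 1.10, adjusted p = 0.331).

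GFP2 was set against GFP4 because both had a low immunoglobulin share. There 2 of 10 genes were called, where 4.35% of all genes were, and the median difference was -0.04 against -0.01 over all genes. Plk2 fell by 1.63 (SE 0.324, adjusted p = 0.014), which is 3.11-fold. That call was lost without GFP4 library I (adjusted p = 0.0611), GFP4 library III (adjusted p = 0.0557) or GFP2 library I (adjusted p = 0.0705), and when GFP1 and Total did not enter the fit (adjusted p = 0.0617). All GFP2 libraries were below all GFP4 libraries. Psrc1 was 1.45 higher (SE 0.269, adjusted p = 0.00453), which is 2.74-fold, and was called in all 25 alternatives. Ccng1 (-0.21, SE 0.0956, adjusted p = 0.304) and Trp53 (0.20, SE 0.0807, adjusted p = 0.245) did not pass. Their GFP2 and GFP4 libraries did not overlap, nor did those of Trp53inp1 (adjusted p = 0.354), which did not pass either. Mdm2 did not pass (adjusted p = 0.812), and its highest GFP2 library and lowest GFP4 library were both at 11.74. The gaps named here describe the libraries only, as their share over all genes was not counted.

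Each label group was also compared with the undivided sort. These 4 comparisons share the 3 Total libraries, so their results are not independent. GFP4 differed from Total in 4 of 10 genes, where 10% of all genes were called. Plk2 was 1.64 higher in GFP4 (SE 0.324, adjusted p = 0.00675) and Ccng1 was 0.41 higher (SE 0.0956, adjusted p = 0.00798), while Psrc1 fell by 1.69 (SE 0.269, adjusted p = 0.00062) and Trp53 by 0.30, as given above. The calls of Ccng1 (adjusted p = 0.0643) and Trp53 (adjusted p = 0.122) were lost when GFP4 and Total were fitted alone, and also without trend and robust moderation (adjusted p = 0.0606 and 0.111).

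In GFP3, 0 of 10 genes differed from Total by limma, where 2.14% of all genes did; 3 genes and 13.7% of all genes had an unadjusted p under 0.05. Psrc1 had the largest difference, at -0.86 (SE 0.269, adjusted p = 0.126). With the replicate number as a block it passed (adjusted p = 0.0433), as 927 genes did in place of 599. Ccng1, at 0.35 (SE 0.0956), had the smallest adjusted p (0.0663) and passed without Total library II (adjusted p = 0.0231). In GFP2, 0 of 10 genes differed from Total by limma, where 0.329% of all genes did, and 0 genes had an unadjusted p under 0.05 against 6.72% of all genes. Plk2 was 10.41 in both groups (difference 0.00, 95% confidence interval -0.71 to 0.71). In GFP1, 1 of 10 genes differed, where 1.73% of all genes did: Plk2 fell by 1.94 (SE 0.324, adjusted p = 0.0111), a call lost without GFP1 library I (adjusted p = 0.0519). Ccng1 was 11.98 in both GFP1 and Total (difference 0.00, SE 0.0956).

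Plk2 and Psrc1 were set beside genes of mitosis, library by library. The mean log2 level of 20 mitosis genes, among them Aurkb, Tpx2 and Cdca8, was 9.98 to 10.44 in GFP4, 10.56 to 11.51 in GFP3, 11.33 to 11.97 in GFP2, 12.30 to 12.55 in GFP1 and 11.69 to 12.01 in Total. All 20 were higher in GFP1 than in GFP4 (median difference 2.33) and in GFP2 than in GFP4 (median 1.55). In GFP3, GFP2, GFP1 and Total, library II had the highest Plk2, the lowest Psrc1 and the lowest mitosis mean of the 3. In GFP3 these were 11.68 for Plk2, 8.78 for Psrc1 and 10.56 for the mitosis mean, against 10.52, 9.44 and 11.51 in library I. In GFP4, library II had the lowest Plk2 (11.74) and the highest mitosis mean (10.44), and its Psrc1 (8.42) lay beside that of library III (8.43). This order within groups was not tested, and libraries of 1 number share age and weeks of doxycycline, and whether they share mice is not stated.

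**Figure D3:**
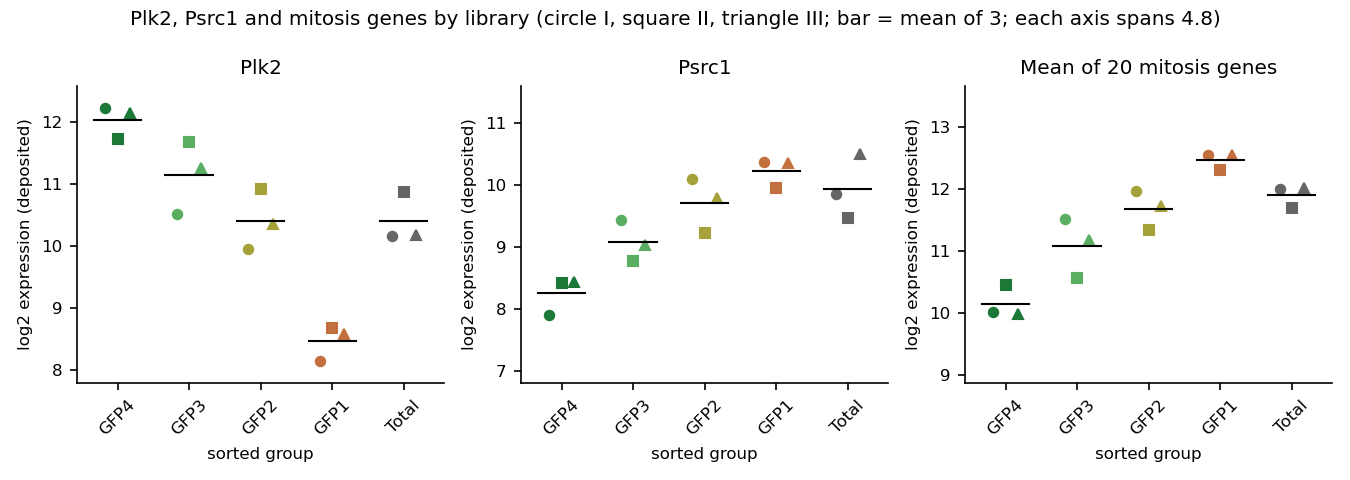
Deposited log2 expression (vertical axis) of Plk2, Psrc1 and the mean of 20 mitosis genes by sorted group (horizontal axis); circles, squares and triangles are libraries I, II and III, and bars are means of 3. In 4 of the 5 groups the square is the highest for Plk2 and the lowest for Psrc1 and the mitosis mean; in GFP4 it is the lowest for Plk2 and the highest for the mitosis mean.

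The genes most like 3 of the members over the 15 libraries were sought among the 10337 genes whose mean reached 10 ppm. The libraries share groups and nearly one distribution, so these correlations describe the data and carry no test. Closest to Plk2 were Cldn5, a tight junction protein (Pearson r = 0.989), Kazald1 (0.987), the cytokine Il15 (0.985), the pseudokinase Trib3 (0.984) and Fam43a (0.983). Closest to Ccng1 were Gulp1 (0.961), Rsbn1 (0.953), Rabgap1 (0.951), Scamp1 (0.946) and Tmod3 (0.944). For Trp53 the values were lower, among them the proteasome subunit Psmb4 at 0.909, Eif3l at 0.899, the glycolytic enzyme Pgk1 at 0.891 and Icam2 at 0.886. No member was among the genes named here.

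The wider network was described with lists chosen from textbook knowledge, also with earlier results of these data known. Of 38 other p53 targets tested, 9 were higher in GFP1 than in GFP4 and 10 were lower, beside the 9.27% and 10.3% of all genes given above, and the median was -0.12 against -0.069 over all genes. By smallest p, those that rose were Ckap2 (2.25, SE 0.219), a spindle protein, Gtse1 (2.26, SE 0.247), a protein of G2 and S phase that binds p53, and Btg2 (1.36, SE 0.171), an antiproliferative protein. Those that fell were Sesn1 (-0.95, SE 0.0881), a sestrin that restrains mTORC1, Ptpn14 (-1.39, SE 0.165), a tyrosine phosphatase, and Trp53i11 (-0.80, SE 0.0965). The other 6 that rose were the apoptosis genes Apaf1 (0.59), Pidd1 (1.45), Pmaip1 (1.63) and Aen (0.56), together with Fdxr (0.45) and Rps27l (0.75). The other 7 that fell were Cd82 (-1.57), Perp (-1.39), Ephx1 (-1.35), Rrm2b (-0.62), Trp53i13 (-0.56), Xpc (-0.55) and Sesn2 (-0.49). The calls of Pmaip1, Fdxr, Sesn2 and Perp each depended on single libraries of GFP4 or GFP1. Without GFP4 library I, Pmaip1 was at 1.05 (adjusted p = 0.238) and Fdxr at 0.41 (adjusted p = 0.109), without GFP4 library II Sesn2 was at -0.36 (adjusted p = 0.161), and without GFP4 library III Perp was at -1.20 (adjusted p = 0.0525). Each of Pmaip1, Fdxr and Sesn2 also missed the threshold without GFP1 library I or II. The same 3 genes missed it without trend and robust moderation (adjusted p = 0.0939, 0.0617 and 0.073). Pmaip1 further missed it with no filter (adjusted p = 0.0516) and without GFP2 library III (adjusted p = 0.0514).

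Cdkn1a, the cell cycle inhibitor p21 and the best known p53 target, differed by 0.00 between GFP1 and GFP4 (SE 0.354, 95% confidence interval -0.74 to 0.74). Its GFP4 libraries were 7.64, 7.22 and 7.50, inside the range of the GFP1 libraries at 6.82, 7.52 and 8.03. In GFP1 and in Total (6.68, 7.23 and 8.28) library I was the lowest and library III the highest. The spread within those 2 groups was thus wider than any difference between group means.

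Of 25 regulators of p53 tested, 4 rose and 4 fell from GFP4 to GFP1 (19.5% of all genes were called), with a median of -0.17 against -0.069 over all genes. Chek1 (1.45, SE 0.173), Chek2 (0.52, SE 0.13) and Prkdc (0.76, SE 0.196), kinases of the DNA damage response, were higher, as was the deubiquitinase Usp10 (0.28, SE 0.083). Trp53bp1 (-0.48, SE 0.102), a DNA repair protein that binds p53, Trp53bp2 (-0.35, SE 0.116), the acetyltransferase Crebbp (-1.23, SE 0.268) and Usp7 (-2.12, SE 0.402), a deubiquitinase of Mdm2 and p53, were lower. Usp7 was split within the middle groups: it was 11.63, 11.57 and 12.76 in GFP3 and 10.34, 10.75 and 11.64 in GFP2, against 12.73, 12.79 and 12.72 in GFP4 and 10.65, 10.32 and 10.90 in GFP1. In both middle groups library III lay nearest to GFP4. The count for the list was 5 without GFP4 library III or GFP1 library I, and the call of Prkdc was lost in both cases (adjusted p = 0.053 and 0.0515), as were those of Usp10 (adjusted p = 0.0642 and 0.0601) and Trp53bp2 (adjusted p = 0.145 and 0.0614). Trp53bp2 passed in 14 of 24 alternatives: it missed the threshold without any 1 library of GFP4 or GFP1 or without GFP3 library I (adjusted p up to 0.183), without trend and robust moderation (adjusted p = 0.0573) and under both rescalings, at -0.31 and -0.29.

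Of 16 BCL2 family genes besides the members, 5 rose and 2 fell (19.5% of all genes were called), with a median of 0.28 against -0.069 over all genes. The protective Bcl2 rose by 0.81 (SE 0.116, adjusted p = 2.99e-05), from 11.90, 12.15 and 11.99 in GFP4 to 12.96, 12.74 and 12.78 in GFP1. The protective Bcl2l1 (0.35, SE 0.101) and Bcl2a1d (1.62, SE 0.478) and the pore-forming Bok (1.38, SE 0.283) and Bak1 (0.91, SE 0.313) also rose, while the protective Mcl1 (-0.30, SE 0.0838) and the BH3-only Bmf (-1.32, SE 0.385) fell. In that list 4 genes were called without GFP4 library I, II or III or GFP1 library I or III. Bcl2l1, Mcl1 and Bmf each lost the call without 2 or 3 of these libraries, with adjusted p up to 0.103, 0.0807 and 0.115. Mcl1 also lost it with median-of-ratios rescaling (adjusted p = 0.0514) and without trend and robust moderation (adjusted p = 0.0928). Bcl2a1d lost the call without GFP4 library I or III or GFP1 library I or II (adjusted p up to 0.106), and Bak1 without most single libraries (adjusted p up to 0.196). In GFP2 against GFP4, Bcl2 (0.61, SE 0.116, adjusted p = 0.00344) and Bok (1.15, SE 0.283, adjusted p = 0.0226) were the 2 genes called. Bok missed the threshold without GFP4 library I or III or GFP2 library I (adjusted p up to 0.169). It also did so with the compared groups alone (adjusted p = 0.0773) and with GFP1 and Total left out (adjusted p = 0.0515). Bcl2 missed it without trend and robust moderation (adjusted p = 0.0607).

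Relatives of the members moved in both directions. Of 13 tested, 2 rose and 2 fell (19.5% of all genes were called), with a median of 0.04 against -0.069 over all genes. Plk1 (2.75, SE 0.245, adjusted p = 1.58e-06), the mitotic polo-like kinase that is also in the mitosis list, and Plk4 (1.59, SE 0.198, adjusted p = 1.85e-05), the kinase of centriole duplication, were higher in GFP1 than in GFP4, opposite in direction to Plk2. Plk1 was 8.91, 9.26 and 8.98 in GFP4 and 11.91, 11.57 and 11.91 in GFP1. Zmat1 (-1.03, SE 0.129) and Ccni (-0.28, SE 0.09) were lower, and the call of Ccni was lost without GFP4 library I, II or III or GFP1 library I or III (adjusted p from 0.0683 to 0.126). Ccni also lost the call with quantile normalization without immunoglobulin genes (adjusted p = 0.0508) and with median-of-ratios rescaling (adjusted p = 0.102). The same held without trend and robust moderation (adjusted p = 0.123).

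In GFP2 against GFP4, where 4.35% of all genes were called, the lists had 3 higher and 3 lower of the 38 other targets, 1 and 1 of the 25 regulators, and 2 and 0 of the 13 relatives. Ckap2 (1.55, SE 0.219), Gtse1 (1.16, SE 0.247), Plk1 (1.68, SE 0.245), Plk4 (0.89, SE 0.198) and Chek1 (0.91, SE 0.173) were higher there, and Sesn1 (-0.45, SE 0.0881), Ptpn14 (-0.64, SE 0.165), Trp53i11 (-0.52, SE 0.0965) and Usp7 (-1.83, SE 0.402) were lower. The count of other targets was 3 without GFP4 library I, GFP2 library I or GFP2 library III. For the regulators it was 1 without any single library of GFP4 or without GFP2 library I or II. Without a single library of either group the adjusted p reached 0.0705 for Gtse1, 0.173 for Ptpn14, 0.129 for Usp7 and 0.0937 for Plk4, while Ckap2, Plk1, Chek1, Sesn1 and Trp53i11 stayed under 0.05. The plot of the lists shows that targets, regulators and relatives lie on both sides of 0, whereas the mitosis genes lie on one.

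**Figure D4:**
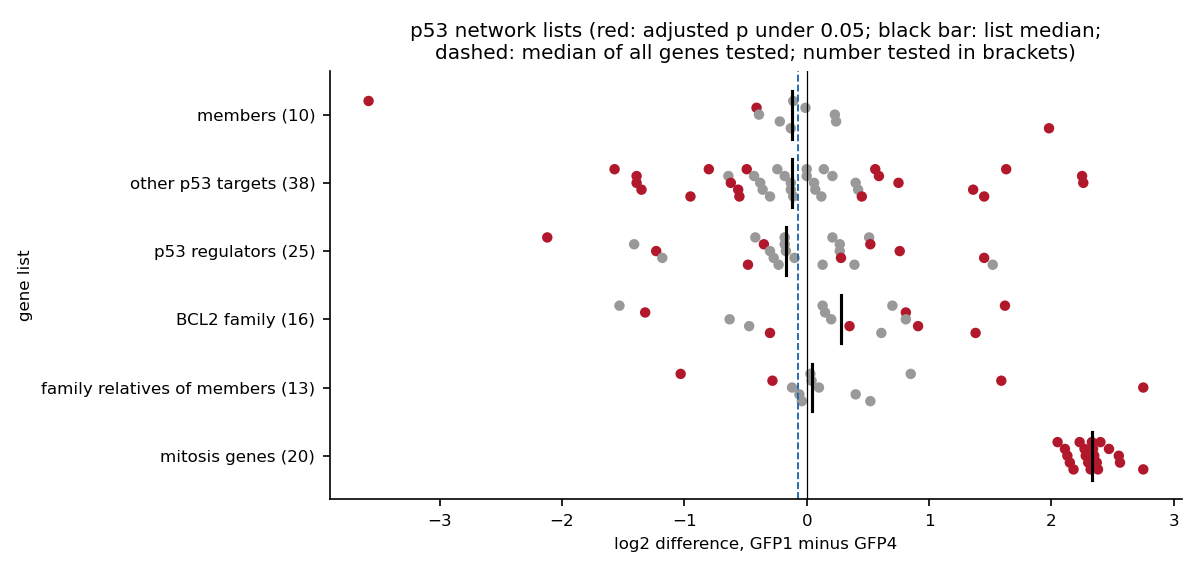
Log2 difference GFP1 minus GFP4 (horizontal axis) of each gene in 6 lists (rows, number tested in brackets), with calls at an adjusted p under 0.05 in red, the list median as a black bar and the median of all genes tested as a dashed line. The medians are -0.12 for the 10 members, -0.12 for other targets, -0.17 for regulators, 0.28 for the BCL2 family, 0.04 for relatives and 2.33 for mitosis genes.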

How the data were processed

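RNA from sorted cells was made into libraries with SMART-Seq v4 and Nextera XT, per the labels' protocols, and the submitters' processing notes list kallisto 0.43.0 and build GRCm38. The authors deposited 1 table of log2 values for 15 libraries. Its columns hold the same distribution except for tied low values, where 4041 to 9778 genes of a library lie. From these values they were taken as quantile normalized, which would remove differences in total RNA. The unit before the logarithm is not given in the sources used here, so depth is unknown and no counting intervals are given.

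Deposited values were made linear (base 2, minus 1), and genes reaching 1 in 3 or more libraries were tested. In R 4.3.3, limma 3.58.1 fitted a mean for each group over the 15 libraries, with trend and robust moderation, and the script was first tested on simulated data. P-values were adjusted by Benjamini-Hochberg over all 27994 genes within each of the 10 comparisons, at 0.05. The members and lists were chosen with earlier results of these data known. Named genes were all members, up to 3 genes each way per list by smallest p, Cdkn1a and Mdm4; other called genes of a list were named after their values were seen. Coordinates are from GENCODE vM21, and 10 of 10 members matched. Of the lists, Ptprv, Trp53cor1 and Cop1 were not analysed here, and 1 gene alike to Trp53 is not reported here.

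Replicate numbers were checked for pairing by correlating same-numbered libraries' deviations from group means. For GFP1 and GFP4 these were -0.00205, -0.289 and 0.155, so those groups were not taken as paired. With 3 libraries a group, such values cannot exclude pairing. For GFP3 and Total they were 0.36, 0.166 and 0.227, and for GFP1 and GFP2 0.31, 0.333 and 0.28. These were taken as paired, as were GFP1 with Total and GFP2 with Total. The main fit had no term for the replicate number, so the main results of these comparisons are unpaired as well. The replicate number entered as a block only in an alternative. For GFP2 and GFP3 the values were also positive, at 0.188, 0.423 and 0.0337. Up to 25 alternatives were run for each result: other scalings, filters, a pseudocount of 0.1, array weights, plain moderation, the block, fewer groups, and each library left out.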

Additional observations from a re-analysis of the deposited data

How the results depend on the processing

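Of 2302 values recomputed under alternatives for 95 results, 2141 kept their direction and side of the threshold, 110 lost a call, 27 gained one and 24 changed sign. In GFP1 against GFP4, 5 members were called with the filter at a mean of 1 ppm (5941 of all genes, against 5468) and 5 with array weights (6295 genes), and 3 to 6 with single libraries left out, the 6 without Total library III (6048 genes). Quantile normalization without immunoglobulin genes and median-of-ratios rescaling each called 4, with Trp53 added (5225 and 5481 genes). In GFP1 against GFP2, 2 were called with the compared groups alone (2225 of all genes, against 2007). With a library left out it was 1 to 2 (1203 to 2489 genes). In GFP2 against GFP4, 1 was called when GFP1 and Total libraries were dropped (1354 genes, against 1219). With a single library left out it was 1 to 2 (535 to 1629 genes). In GFP4 against Total, 2 were called without trend and robust moderation (1775 genes, against 2799) and 2 with the compared groups alone (1660 genes). In GFP3 against Total, 1 was called with the 1 ppm filter (Ccng1, adjusted p = 0.0351, 874 genes against 599). The replicate block called 1 (927 genes), and fits with a library left out called 0 to 1 (201 to 628 genes). In GFP1 against Total, 0 to 1 were called with a library left out (198 to 564 genes, against 484).

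For GFP1 minus GFP4, quantile normalization without immunoglobulin genes turned the sign of Trp53inp1 (0.00), Zmat3 (0.03), Phlda3 (0.01) and Cdkn1a (0.13), and median-of-ratios rescaling that of Trp53inp1 (0.04) and Cdkn1a (0.05). Array weights gave Cdkn1a at 0.10. With single libraries left out these differences ran from -0.12 to 0.06 for Trp53inp1, -0.26 to 0.08 for Zmat3, -0.50 to 0.07 for Phlda3 and -0.29 to 0.32 for Cdkn1a. For GFP2 minus Total, Plk2 was -0.02 under both rescalings and -0.25 to 0.24 with a library left out, and Psrc1 was -0.48 to 0.04.

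Over all genes, the count with a library left out ranged from 0 to 122 for GFP3 against GFP4 (16), 0 to 19 for GFP2 against GFP3 (0), 1203 to 2489 for GFP1 against GFP2 (2007), 535 to 1629 for GFP2 against GFP4 (1219), and 201 to 628, 57 to 124 and 198 to 564 for GFP3, GFP2 and GFP1 against Total (599, 92 and 484). It was 48 for GFP3 against GFP4 and 5 for GFP2 against GFP3 with the replicate block. Without trend and robust moderation 1094 genes were called in GFP1 against GFP2, 529 in GFP2 against GFP4, 1775 in GFP4 against Total (2799), 147 in GFP3 against Total and 130 in GFP1 against Total. With the compared groups alone it was 1660, 144 and 89 for GFP4, GFP3 and GFP1 against Total, and 50 for GFP2. In GFP1 against GFP4, 2596 genes were higher and 2872 lower, but 2960 and 2521 with median-of-ratios rescaling and 2694 and 2531 with quantile normalization without immunoglobulin genes. In GFP1 against GFP2, 858 genes were higher and 1149 lower, and 1119 and 906 with median-of-ratios rescaling. Apart from GFP3 against Total, the replicate block changed no call of a member in the comparisons taken as paired, nor in GFP2 against GFP3. In GFP4 against Total, not taken as paired, it added Bax (-0.34, adjusted p = 0.0458), so 5 members were called.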
